A study of Mus musculus with 8 samples.

Results

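The Skint genes are a mouse family of 11 genes that lie side by side on chromosome 4, and 10 of them, Skint1 to Skint10, are described here out of 49315 genes counted in 8 RNA sequencing libraries of back skin epidermis. They were chosen by symbol and by earlier results on these libraries, in which Skint4 was almost without reads in a pair of knockout libraries, so the levels below are a description of the values that chose them and no test is read from them. All 10 passed the filter on low counts. The 11th gene, Skint11, was not among those chosen and is given as a neighbour. The 3 WT and the 5 Tgfa KO libraries came from isolated epidermis of mice aged 22 months, labelled as keratinocytes. KO stands for a knockout of Tgfa, which encodes the growth factor TGF alpha, one of several ligands that activate the EGF receptor. The sources used here give neither the structure of that allele nor the strain of the mice. Each library name has 1 of 2 endings: bl marks KO replicates 3, 4 and 5, br marks the other 5 libraries, and no label explains them.

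Skint stands for selection and upkeep of intraepithelial T cells. The genes encode membrane proteins related to the butyrophilins, with immunoglobulin-like domains outside the cell and several membrane-spanning stretches, and they are transcribed mainly in the epithelial cells of skin and thymus. The best known member is Skint1, which thymic epithelium needs for the selection of the gamma delta T cells that later settle in mouse epidermis as dendritic epidermal T cells. In bulk RNA from epidermis, fewer cells of a type and less RNA per cell cannot be told apart.

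The libraries differed in depth and in several summary values within both groups. KO replicate 2 had 5313552 counts and the other 7 libraries had 12968728 to 18292303. Olfactory and vomeronasal receptor genes, which epidermis is not known for, took 3725 CPM (counts scaled to library size) in KO replicate 2, 613 in WT replicate 3, 267 in WT replicate 2 and 34.3 to 64.6 elsewhere. The share of counts on Malat1, an RNA that stays in the nucleus, was 6.61% for WT replicate 3, 4.88% for KO replicate 1 and 1.34% to 1.84% for the rest. Tgfa itself was read at 85.07 to 111.69 CPM in WT and at 34.39 to 70.15 CPM in KO replicates 2 to 5. The library labelled KO replicate 1 had 131.71 CPM, above every WT library and unlike the other KO libraries. All KO libraries kept Tgfa reads, so these levels alone cannot decide whether the label of KO replicate 1 is right. Keratinocyte markers were abundant in all 8 libraries: 6 basal genes such as Krt5 and Krt14 summed to 4081 to 12580 CPM in WT and 5546 to 13555 in KO. The libraries also held other cells, since 7 Langerhans cell genes summed to 763 to 1166 CPM in WT and 341 to 1144 in KO.

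The promoter windows of the family fall into 3 sets, shown here because the members that lacked reads together come from more than 1 of them. RefSeq promoter windows (250 bases before to 50 after a start, 300 bases in all, build GRCm38.p6) matched all 11 genes by symbol, with 2 windows for Skint4. Windows were joined where they shared an exact run of at least 14 bases, each read 5′ to 3′ along its gene, which put Skint1 to Skint6 in one set, Skint9, Skint10 and Skint11 in another and Skint7 and Skint8 in the last. The upstream window of Skint4 joined none of them. A run shared within the set is in capitals in the lines below, 3 of which belong to members that lacked reads (Skint4, Skint3 and Skint9) and 2 to members that kept them (Skint1 and Skint10).
Skint4, chr4:112081220-112081519, + strand: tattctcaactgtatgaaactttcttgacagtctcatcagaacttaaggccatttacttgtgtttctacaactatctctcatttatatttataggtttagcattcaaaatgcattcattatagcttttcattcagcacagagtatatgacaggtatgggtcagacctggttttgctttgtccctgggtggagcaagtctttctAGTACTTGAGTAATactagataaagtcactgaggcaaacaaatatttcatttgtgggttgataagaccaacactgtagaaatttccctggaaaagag
Skint3, chr4:112231995-112232294, + strand: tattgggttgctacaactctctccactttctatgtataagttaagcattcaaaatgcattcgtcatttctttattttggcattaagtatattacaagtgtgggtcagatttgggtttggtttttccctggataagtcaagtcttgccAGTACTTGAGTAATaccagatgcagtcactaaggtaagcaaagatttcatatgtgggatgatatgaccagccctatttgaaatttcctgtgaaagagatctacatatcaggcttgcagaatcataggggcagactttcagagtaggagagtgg
Skint1, chr4:112006019-112006318, + strand: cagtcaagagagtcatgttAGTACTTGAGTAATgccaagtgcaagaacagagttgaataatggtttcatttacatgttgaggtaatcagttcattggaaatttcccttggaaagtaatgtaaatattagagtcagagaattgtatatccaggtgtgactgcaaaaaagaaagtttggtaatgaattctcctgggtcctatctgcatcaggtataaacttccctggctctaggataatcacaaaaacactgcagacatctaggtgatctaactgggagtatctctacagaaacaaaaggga
Skint9, chr4:112433936-112434235, - strand: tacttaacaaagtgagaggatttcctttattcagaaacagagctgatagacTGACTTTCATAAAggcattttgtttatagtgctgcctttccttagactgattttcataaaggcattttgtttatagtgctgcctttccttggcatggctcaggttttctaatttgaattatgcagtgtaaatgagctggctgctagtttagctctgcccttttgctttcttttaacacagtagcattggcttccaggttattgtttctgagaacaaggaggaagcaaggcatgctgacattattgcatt
Skint10, chr4:112774812-112775111, - strand: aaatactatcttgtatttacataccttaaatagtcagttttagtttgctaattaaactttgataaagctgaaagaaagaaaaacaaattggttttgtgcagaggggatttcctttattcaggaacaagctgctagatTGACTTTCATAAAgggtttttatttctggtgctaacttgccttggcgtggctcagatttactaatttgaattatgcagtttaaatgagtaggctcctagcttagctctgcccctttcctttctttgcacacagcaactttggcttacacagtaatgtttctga
The 14-base run AGTACTTGAGTAAT stood in the windows of 5 genes, Skint1, Skint3, Skint4, Skint5 and Skint6. The 13-base run TGACTTTCATAAA stood in those of Skint9, Skint10 and Skint11. On either strand, 5 and 3 of all 32851 promoter windows held these runs, or 0.0152% and 0.00913%, all of them windows of the family. The runs were found in these windows and then counted in all, so the counts describe how rare the letters are and say nothing of any factor. Skint7 and Skint8 shared 51 bases.

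Skint4, Skint3 and Skint9 lacked reads together in KO replicates 3 and 4 and in no other library. Skint4 had 111.95, 110.14 and 120.99 CPM in WT replicates 1 to 3, 107.53, 78.85 and 78.08 in KO replicates 1, 2 and 5, and 0.06 in each of KO replicates 3 and 4, from 1 count each. Skint3 had 248.52, 241.91 and 104.66 CPM in WT, 162.95, 138.24 and 140.64 in KO replicates 1, 2 and 5, and 0 and 0.34 in KO replicates 3 and 4, from 0 and 6 counts. A count of 0 in KO replicate 3 allows a level of up to 0.188 CPM, by counting error alone. Skint9 had 126.17, 151.08 and 18.68 CPM in WT, 92.79, 72.42 and 90.75 in KO replicates 1, 2 and 5, and 0.19 and 0.11 in KO replicates 3 and 4, from 3 and 2 counts. So 5 of the 8 libraries held all 3 genes at over 70 CPM, WT replicate 3 had the lowest Skint3 and Skint9 of the 6 libraries with reads, and KO replicates 3 and 4 had 4 and 9 counts over the 3 genes together.

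The gap between these values and the rest of the family was wide. With under 1 CPM taken as near zero, the highest value inside the limit was 0.34 CPM (Skint3 in KO replicate 4) and the lowest outside it was 5.94 CPM (Skint2 in WT replicate 3). KO replicate 5 is the 1 other library whose name ends in bl, and its levels were set against those of KO replicates 3 and 4, with exact 95% intervals that cover counting error only. Skint4 was 1249-fold (224 to 49370) and 1369-fold (245 to 54101) higher in KO replicate 5 than in KO replicates 3 and 4. Skint3 was at least 750-fold higher than in KO replicate 3, with the 0 there set to a floor of 3 counts (the exact interval of the ratio has a lower limit of 609), and 411-fold (188 to 1121) higher than in KO replicate 4. For Skint9 the ratios were 484-fold (165 to 2349) and 795-fold (220 to 6574).

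**Figure D1:**
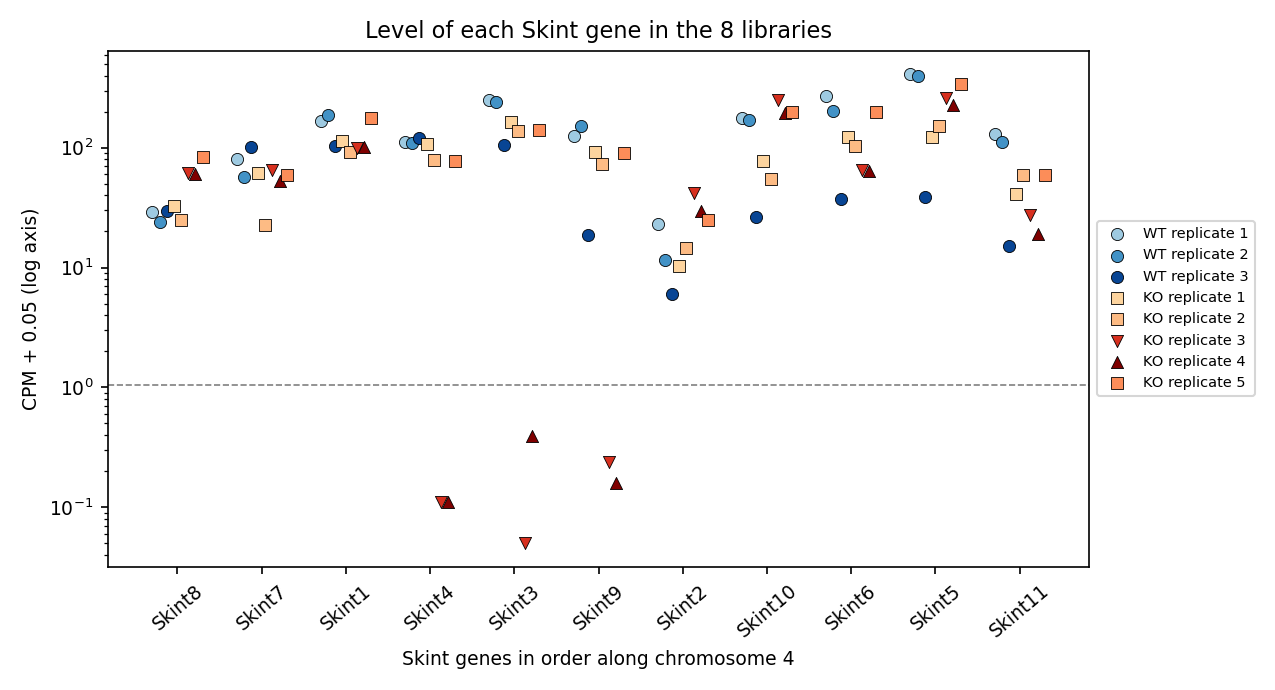
TMM-scaled CPM plus 0.05 on a log axis for the 10 Skint members and Skint11 in order along chromosome 4, with 1 point per library (circles WT, squares and triangles KO) and a dashed line at 1 CPM. Only Skint4, Skint3 and Skint9 in KO replicates 3 and 4 lie below the line, at 0 to 0.34 CPM.

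The 3 genes are neighbours. Skint4 spans 112072016 to 112168076 on the plus strand of chromosome 4 (GRCm38), Skint3 follows at 112232245 to 112300468 on the same strand, and Skint9 lies at 112385969 to 112433985 on the minus strand, so the genes without reads fill a stretch of 362 kb and are read in both directions. Skint1 ends at 112029538, before this stretch, and Skint2 starts at 112557194, after it, and both kept reads in all 8 libraries. The files list 4 more genes in the 528 kb between Skint1 and Skint2, all pseudogenes (Gm12820, Gm12815, Gm12819 and Gm12821). All 4 had 0 counts in KO replicates 3 and 4, and together they had 35 to 117 counts in each of the other 6 libraries. Of 61 neighbours with counts outside the outermost members, 26 also had 0 counts in both KO replicates 3 and 4. Singly, Gm12821 had 0 counts in WT replicates 1 and 2 and 1 in KO replicate 1. Gm12819 had 1 count in WT replicate 2. For these 2 genes the lack of reads was therefore not particular to KO replicates 3 and 4. Gm12820 had 2.18 to 3.83 CPM in those 6 libraries. It and Gm12815 lie within the span of Skint4, so their reads may belong to it.

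Over the whole table the pattern was rare. Of 8862 genes with at least 5 CPM in each of the other 6 libraries, 3 were under 1 CPM in both KO replicates 3 and 4, or 0.0339%, and the 3 were Skint4, Skint3 and Skint9. With at least 2 CPM in place of 5 there were 6, the added ones being Gm12820, Erv3 on chromosome 2 and Gnat1 on chromosome 9. Erv3 had 2.71 to 8.29 CPM in the 6 libraries and 0.88 and 0.23 in KO replicates 3 and 4, and Gnat1 had 2.02 to 7.64 against 0.56 and 0.86. These are gaps of a few CPM, not of 70 or more as for Skint4. The pattern was the reason the family was chosen, so its rarity is a description of these libraries.

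The members could be told apart by their sequences at the length of a read. Reads were 150 bases long, per the labels' protocols, and of all 150-base windows in the GENCODE M21 transcripts of Skint4, Skint3 and Skint9, 0% were found in a transcript of another gene. The same held for Skint1, Skint2, Skint5, Skint6, Skint10 and Skint11. Skint7 shared 2.26% of its windows with Skint8, so a small part of the reads of this pair is uncertain. Windows that differ by a few bases were not compared.

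**Figure D2:**
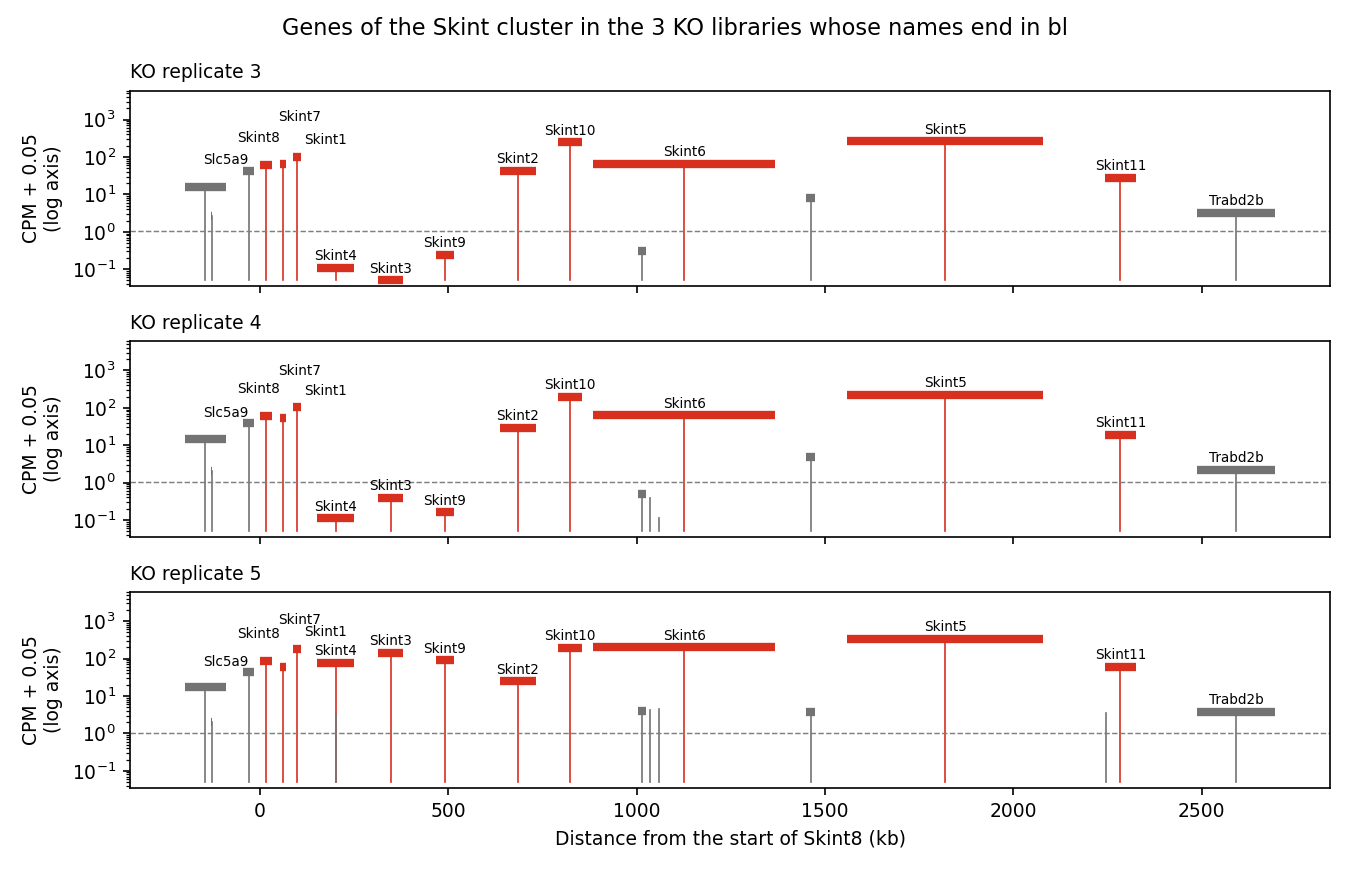
Genes of the cluster in KO replicates 3, 4 and 5, each bar spanning the gene (distance from the start of Skint8 in kb) at the height of its CPM plus 0.05 on a log axis, red for Skint genes and grey for other genes with a mean of at least 2 CPM. In KO replicates 3 and 4 the bars from Skint4 to Skint9 drop below the dashed line at 1 CPM while Skint1 and Skint2 on either side stay at 29.33 CPM or above.

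On the near side of the stretch, Skint8, Skint7 and Skint1 kept their reads. Skint1 had 166.47, 187.86 and 103.88 CPM in the WT libraries, and 113.8, 91.35, 99.41, 102.07 and 177.11 in KO replicates 1 to 5. The groups overlapped, and KO replicates 3 and 4 lay within the range of the other KO libraries. Skint7 had 80.43, 56.89 and 101.69 CPM in the WT libraries and 61.39, 22.58, 65.46, 52.78 and 58.87 in KO. Its lowest value was in KO replicate 2, the shallowest library. Skint8, the first gene of the row, had 28.88, 23.81 and 29.54 CPM in the WT libraries and 32.28, 25.01, 61.15, 60.31 and 84.14 in KO. All 3 libraries ending in bl were above all 5 ending in br, and the share of all genes that did so was not counted.

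A step like that of Skint8, absent from Skint7 and Skint1, was also seen in the gene next to Skint8 outside the family. Slc5a9 encodes a sodium-coupled sugar transporter and ends 16.5 kb before Skint8. It had 15.28, 16.41 and 8.36 CPM in WT, 18.87 and 21.36 in KO replicates 1 and 2, and 42.2, 38.74 and 43.49 in KO replicates 3 to 5. Its KO libraries all lay above its WT libraries (log2 fold change 1.3, SE 0.37, edgeR adjusted p = 0.563), as did those of 3.4% of all tested genes. As for Skint8, the libraries ending in bl were the high ones. The 3.4% is for KO against WT, and the share of all genes that separate by label ending was not counted. On the other side, Skint11 comes next after Skint5, and the nearest protein-coding gene outside the family with a mean of at least 2 CPM was Trabd2b, 407 kb past Skint5, at 3.36 to 5.71 CPM in WT and 2.17 to 14.41 in KO.

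On the far side, Skint2 and Skint10 were not low in the libraries that lacked Skint4. Skint2 had 23.23, 11.51 and 5.94 CPM in the WT libraries and 10.17, 14.59, 41.89, 29.33 and 24.71 in KO, so its 3 highest values were those of KO replicates 3 to 5. Skint10 had 178.45, 169.41 and 26.11 CPM in the WT libraries and 77.9, 54.88, 248.28, 195.82 and 197.43 in KO. Its values were lowest in WT replicate 3 and KO replicates 1 and 2, and highest in the libraries ending in bl. How many of all genes are highest in those libraries, as Skint2 and Skint10 were, was not counted. The promoter windows of Skint9 and Skint10 belong to the same set, and the second kept its reads where the first had 3 and 2 counts.

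Skint6 and Skint11 were present in every library but lower in KO replicates 3 and 4 than in KO replicate 5. Skint6 had 268.06, 202.48 and 37.44 CPM in the WT libraries and 121.9, 104.03, 65.27, 63.27 and 199.03 in KO. It was 3.05-fold (2.84 to 3.28) and 3.15-fold (2.93 to 3.37) higher in KO replicate 5 than in KO replicates 3 and 4. Skint11, the last gene of the row, had 129.3, 111.2 and 14.93 CPM in the WT libraries and 41.13, 58.87, 27.26, 19.11 and 59.15 in KO, with ratios of 2.17 (1.93 to 2.44) and 3.09 (2.72 to 3.52). Between them lies Skint5, with 410.91, 396.63 and 38.53 CPM in the WT libraries and 121.9, 151.96, 259.72, 225.66 and 337.1 in KO, and its ratios were smaller, at 1.3 (1.24 to 1.35) and 1.49 (1.43 to 1.56). On the near side, the ratios were 1.78 (1.67 to 1.9) and 1.74 (1.63 to 1.84) for Skint1 and 1.38 and 1.4 for Skint8. Those of Skint7 were 0.899 and 1.12, those of Skint2 0.59 and 0.842, and those of Skint10 0.795 and 1.01. For Skint6 and Skint5 the lowest library was WT replicate 3, as it was for Skint2, Skint10 and Skint11.

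Small pseudogenes and an antisense RNA inside Skint6 and Skint11 were near zero in KO replicates 3 and 4. Gm12816, Gm12818 and Gm12823 lie within Skint6, and Gm15741 lies within Skint11. They had 3.37 to 9.07 CPM in WT replicates 1 and 2 and 3.41 to 4.38 in KO replicate 5, but 0 to 0.46 in KO replicates 3 and 4. They were also low in WT replicate 3, at 0.08 to 0.94 CPM, and in KO replicate 1, at 0.22 to 1.4 CPM. In KO replicate 2 they had 2.26 to 5.04 CPM, though Skint6 itself was lower there than in KO replicate 1. That library had 3725 CPM on receptor genes and also had reads on neighbours scarce elsewhere, such as Agbl4 below. The part of such background in its pseudogene values was not tested. The sources used here do not say whether reads were counted by strand. The reads of these pseudogenes and the antisense RNA were therefore not told apart from those of the gene around them. Gm12813, a pseudogene between Skint6 and Skint5, went the other way, at 0.07 to 1.39 CPM in the libraries ending in br and 8.13, 4.91 and 3.69 in KO replicates 3 to 5. The share of all genes with such a separation was not counted. Neighbours averaging at least 2 CPM that were near zero in both KO replicates 3 and 4 lay inside Skint genes, except Agbl4. The mean of Agbl4 rested on 14.07 CPM in KO replicate 2. Below that limit, Gm12825, a pseudogene between Skint5 and Skint11 and inside neither, had 0.06 CPM in each of KO replicates 3 and 4. It had 0.9 to 3.05 CPM in the other libraries.

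Per length, averaged over all 8 libraries, Skint5 was the most abundant member and Skint2 the least. Levels of different genes are set side by side here as CPM per kb of exon, averaged over the 8 libraries. The average includes KO replicates 3 and 4, where Skint9, Skint3 and Skint4 had 0 to 0.14 CPM per kb. This lowers the averages of these genes and their places in the order. The order was Skint5 (52.9 CPM per kb), Skint9 (50.3), Skint1 (43.2), Skint10 (38.4), Skint6 (34.7), Skint3 (33.7), Skint4 (17.4), Skint7 (15.7), Skint8 (9.26) and Skint2 (8.46), with Skint11 at 41.4. In WT alone Skint9 came first, at 71.9 ± 51.3 CPM per kb (SD, n = 3), ahead of Skint5 at 61.4 ± 46, Skint3 at 51.6 ± 21.1 and Skint1 at 50.7 ± 14.5. These top 4 did not differ beyond their spread. Skint4 was the most even member in WT, at 26.2 ± 1.33 CPM per kb, while Skint5 ran from 8.4 to 89.5.

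The 3 genes made up a large part of the family's reads where they were present. Skint4, Skint3 and Skint9 took 29.6%, 32.4% and 41.6% of the counts of the 10 members in the WT libraries. Their share was 40.2%, 38.4% and 22.3% in KO replicates 1, 2 and 5. In KO replicates 3 and 4 they took 0.0297% and 0.0704%. The summed level of the 10 members was 1643, 1552 and 587 CPM in the WT libraries and 903, 754, 841, 730 and 1388 in KO, so it was lowest in WT replicate 3 and not in the libraries that lacked the 3 genes. The other 7 members alone summed to 841 and 729 CPM in KO replicates 3 and 4, above the 539 and 464 of KO replicates 1 and 2 and below the 1078 of KO replicate 5.

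**Figure D3:**
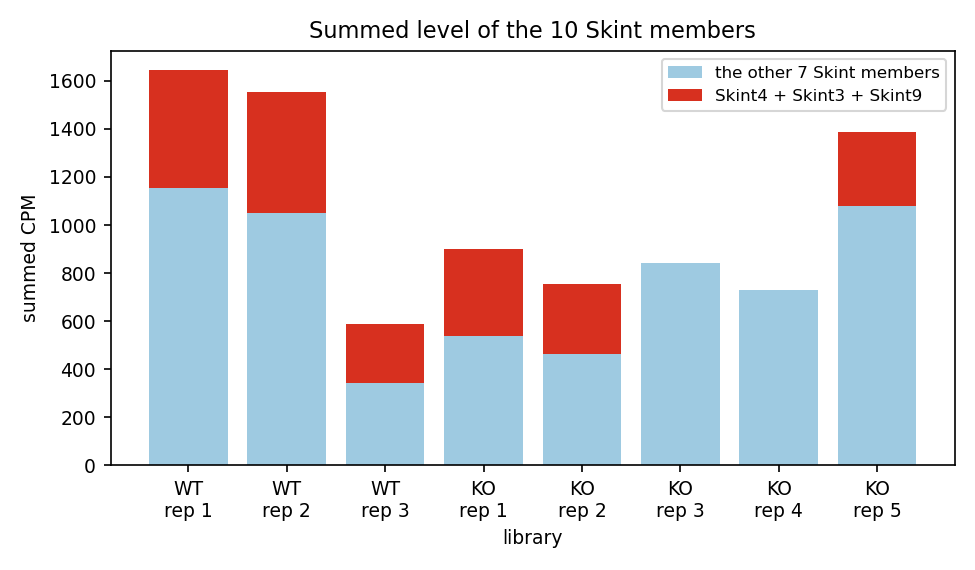
Summed CPM of the 10 Skint members in each library, split into Skint4, Skint3 and Skint9 (red) and the other 7 members (blue). The red part is 244 to 503 CPM in 6 libraries and 0.25 and 0.514 CPM in KO replicates 3 and 4.

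The members outside the stretch did not vary as a block. Across the 8 libraries (log2 CPM, Pearson r as a description, with the libraries shared by all pairs), Skint3 and Skint4 had r = 0.99 and Skint3 and Skint9 r = 0.98, and both pairs were near zero in the same 2 libraries. Skint5 and Skint10 had r = 0.9, Skint2 and Skint10 0.85 and Skint1 and Skint6 0.82, while Skint7 had an r of at most 0.3 with any other member. Among 14764 genes with a mean of at least 2 CPM, the 5 most like Skint4 were Gm12820 (r = 0.989), Skint3 (0.989), Skint9 (0.967), Tmcc3os (0.956) and Snhg15 (0.941). The last 2 are noncoding RNA genes on chromosomes 10 and 11 that were lower but far from absent in KO replicates 3 and 4, Tmcc3os at 3.19 and 3.25 CPM against 5.92 to 8.6 elsewhere and Snhg15 at 5.44 and 6.05 against 7.82 to 9.57. The 5 most like Skint5 were all on other chromosomes: Pon2 (0.988), Ntmt1 (0.987), Dlg2 (0.986), Pus7 (0.985) and Ccdc50 (0.985). Each was lowest in WT replicate 3 and next lowest in KO replicate 1, as Skint5 was.

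Of the lists for epidermal layers, the basal one moved with some of these levels. The basal list summed to 4081 CPM for WT replicate 3, to 5546 and 7193 for KO replicates 2 and 1, and to 10439 to 13555 for the other 5 libraries, so the 3 libraries low for Skint5 and Skint10 were the 3 low for basal genes. The basal sums of KO replicates 3 and 4, 13555 and 13547 CPM, were the highest of the 8, above the 12580 of WT replicate 1. The highest receptor gene levels were those of KO replicate 2 and WT replicate 3, and the highest Malat1 shares those of WT replicate 3 and KO replicate 1. The granular list, which includes Lor and Flg, summed to 1449 CPM in KO replicate 2, 2403 and 2706 in KO replicates 3 and 4, and 3771 to 13632 in the other 5 libraries. The part of cell makeup and RNA quality in the Skint levels was not tested.

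The remaining lists, with that of epidermal T cells given further below, had sums in KO replicates 3 and 4 within or below the range of the other 6 libraries. Langerhans cell genes summed to 500 and 590 CPM there and to 341 to 1166 elsewhere. Fibroblast genes summed to 3.94 and 20.3 CPM in KO replicates 3 and 4 and to 33.1 to 74 elsewhere, and melanocyte genes to 15 and 22.4 against 7.89 to 23.1. Suprabasal genes summed to 19540 and 17111 CPM there and to 8181 to 23891 elsewhere, upper hair follicle genes to 816 and 902 against 771 to 1841, and sebaceous genes to 551 and 515 against 471 to 755. Endothelial, muscle and adipocyte genes summed to 0.125 to 2.97 CPM there, and highest in KO replicate 2, at 47.8, 25.4 and 21.4 CPM. Over the 13 lists and the neighbours, 106 genes were tested in KO against WT and 0 passed the edgeR threshold, with 9 at an unadjusted p under 0.05, which 1209 of all 19239 tested genes (6.28%) also had.

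The summed level of epidermal T cell genes was not low where the 3 Skint genes lacked reads, though single genes went both ways. Of 15 genes of dendritic epidermal T cells 13 were found by symbol, and their summed level was 106 and 114 CPM in KO replicates 3 and 4. The sums were 63.4, 81.7 and 49.9 CPM for the 3 WT libraries, and 42.4, 123 and 63.5 CPM for KO replicates 1, 2 and 5. Trdc, the constant region gene of the delta chain of their receptor, had 21.95 and 20.83 CPM in KO replicates 3 and 4, the highest of the 8 libraries, against 4.72 to 16.33 elsewhere. Cd3e, a chain of the receptor complex of all T cells, had 31.39 and 32.98 CPM there and 7 to 18.26 elsewhere. Itgae, an integrin chain of T cells in epithelia, and Il2rb, a cytokine receptor chain, were not highest there, at 9.94 to 13.12 CPM against 22.92 and 16.85 in KO replicate 2. Jaml, an adhesion molecule that costimulates these cells, was low there, at 0.94 and 2.05 CPM, with 1.18 in KO replicate 5 and 2.35 to 13.37 in the 5 libraries ending in br. In KO against WT, 10 of 12 tested genes of this list had positive log2 fold changes (median 0.54, against 0.16 over all tested genes), and 0 passed the edgeR threshold, with 0 at an unadjusted p under 0.05.

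Butyrophilins and B7 proteins are relatives of the family that regulate T cells from the surface of other cells. The list used here also held Mr1 and Cd1d1, which belong to neither and encode MHC class I-like proteins that present antigen to T cells. Of 22 genes 21 were found and 9 passed the filter on low counts. Cd274, which encodes the inhibitory ligand PD-L1, had the highest mean of these, with 32.5 ± 23.5 CPM over the WT libraries (SD, n = 3) and 25.8 ± 17.4 over the KO libraries (n = 5). Mr1, whose product presents metabolites, was at 31.6 ± 14.1 and 25.2 ± 5.33. Cd86, a costimulatory ligand of antigen presenting cells, averaged 23.3 ± 2.57 CPM over WT and 10.6 ± 5.84 over KO (edgeR log2 fold change -1.15, SE 0.42, adjusted p = 0.683), and its groups did not overlap, as for 1.75% of all tested genes in this direction. Cd276, a B7 family gene, went the other way, with 5.01 ± 0.415 CPM over WT and 11 ± 3.56 over KO (edgeR log2 fold change 1.14, SE 0.33, adjusted p = 0.563), and its groups did not overlap either, as for 3.4% of all tested genes in that direction. By library, Cd276 had 6.63 and 8.16 CPM in KO replicates 1 and 2 and 15.38, 12.78 and 12.04 in KO replicates 3 to 5. Cd86 had 13.56 and 18.58 CPM in KO replicates 1 and 2 and 5.69, 10.9 and 4.31 in KO replicates 3 to 5. For both, the KO libraries ending in bl lay further from WT than the other KO libraries. Vsir, a checkpoint gene, was at 11.5 ± 1.78 CPM over WT and 12.9 ± 5.23 over KO. Of the 9, 6 had positive log2 fold changes (median 0.73), none passed the edgeR threshold, and 2 had an unadjusted p under 0.05, against 6.28% of all tested genes. The butyrophilin genes proper (Btn1a1, Btn2a2 and the Btnl genes) had under 7 CPM in every library, with their highest values in KO replicate 2 for 7 of the 8 and in WT replicate 3 for Btnl4.

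Between the groups, KO minus WT, the members spread to both sides of 0. The edgeR log2 fold changes were -1.12 for Skint4 (SE 1.41), -1.17 for Skint3 (SE 1.48) and -0.95 for Skint9 (SE 1.44), the largest SEs among the members. The other members were at 0.94 for Skint8 (SE 0.38), 0.83 for Skint2 (SE 0.53), 0.31 for Skint10 (SE 0.64), -0.36 for Skint5 (SE 0.62), -0.39 for Skint1 (SE 0.29), -0.61 for Skint6 (SE 0.57) and -0.61 for Skint7 (SE 0.34). The median over the 10 was -0.5, with 3 positive, against 0.16 and 61.9% positive over all 19239 tested genes. Since these values chose the members, their count past the threshold is only stated: it was 0 of 10 in edgeR (adjusted p under 0.05), where 0.0052% of all tested genes passed, with 1 member, Skint8, at an unadjusted p under 0.05, as 6.28% of all tested genes were. DESeq2 and limma voom also called 0 of them, against 0.804% and 0% of all genes. Limma voom with library weights, which gives KO replicates 3 and 4 weights of 2.25 and 2.19 and KO replicates 1 and 2 weights of 0.28 and 0.37, called 4, Skint3, Skint4 and Skint9 lower and Skint8 higher, where 6.46% of all tested genes were called, 3.07% lower and 3.39% higher. In edgeR without WT replicate 3 and KO replicates 1 and 2, Skint8 was called higher, where 10.6% of all genes were called, 5.32% lower and 5.25% higher. Skint4 was the 1 member whose KO libraries all lay below its WT libraries (1.75% of all tested genes), and its KO values in replicates 1, 2 and 5 were 78.08 to 107.53 CPM against at least 110.14 in WT.

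Skint8, Skint2 and Skint10, the members with positive differences, were near or below 0 without the libraries ending in bl. Within libraries ending in br, 3 WT and 2 KO, the log2 fold change was 0.02 for Skint8, -0.25 for Skint2 and -0.99 for Skint10. A fit that took the ending as a covariate gave 0.07, -0.14 and -0.91. Because bl occurs in KO alone, this fit takes its difference from the same libraries and is no separate check. The 3 genes without reads were closer to 0 in the same fits, at -0.34 and -0.29 for Skint4, -0.47 and -0.4 for Skint3, and -0.34 and -0.26 for Skint9. The KO libraries ending in br are replicates 1 and 2. Tgfa in replicate 1 was above every WT library. Replicate 2 is the shallowest library, with 3725 CPM on receptor genes. The label ending bl occurs in KO alone, so within that ending the groups could not be compared.

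**Figure D4:**
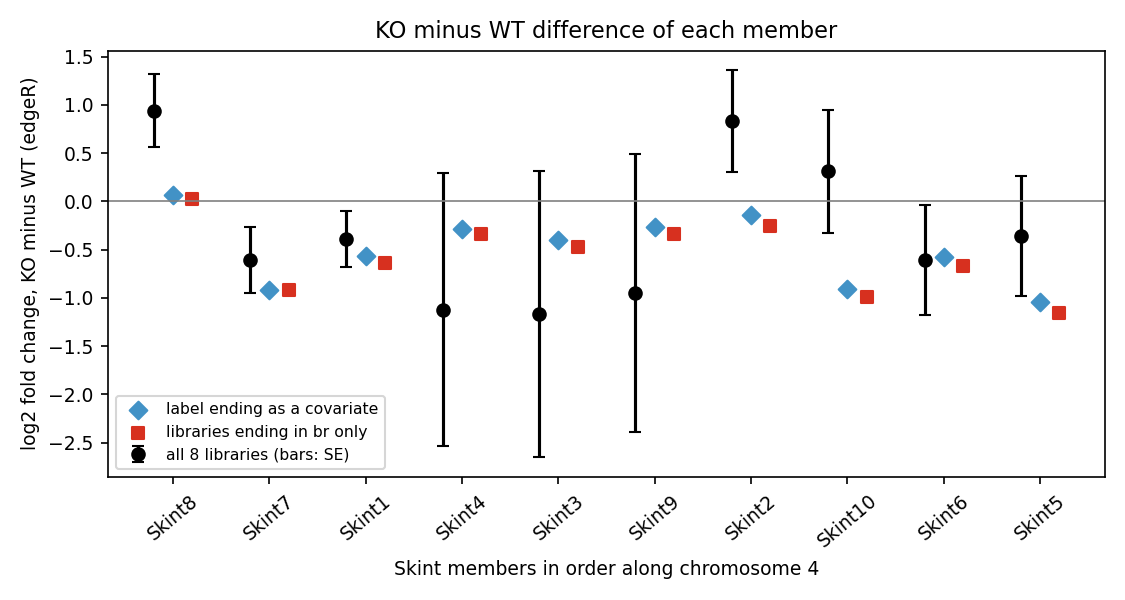
EdgeR log2 fold change, KO minus WT, for each member in order along chromosome 4, with all 8 libraries (black, bars SE), with the ending as a covariate (blue diamonds) and in libraries ending in br only (red squares). Skint8, Skint2 and Skint10 lie above 0 with all 8 libraries and at 0.07 or below in both other fits, which take the difference from the same libraries.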

How the data were processed

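RNA of 8 libraries (3 WT, 5 KO) was analysed, grouped by the genotype in the labels, with replicates numbered in deposition order. These numbers pair no libraries. Since no label says that each library is a separate animal, a p-value here reflects only how these samples vary. The authors deposited raw whole-number read counts per Ensembl gene, 1 file per library. The tools named, per the submitters' processing notes, are Trimmomatic 0.36 for trimming, STAR 2.5.2b as aligner, and Subread 1.5.2 with its featureCounts program as counter. The sources used here do not give settings, strand or the handling of multi-mapping reads. The notes name GRCh38 and GRCm38. The files list mouse Ensembl identifiers with coordinates, and all 10 members had the same start and end as in GENCODE M21 (GRCm38), as had 91.4% of 48970 genes matched by identifier. Symbols came from a table of gene names.

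Differences between KO and WT came from edgeR 4.0.16, run in R 4.3.3 (quasi-likelihood, robust, TMM, filterByExpr, Benjamini-Hochberg adjusted p under 0.05 over 19239 genes). CPM are counts over TMM-scaled library sizes of the genes that passed the filter, except those of receptor genes, which are over library totals. Log2 CPM use a prior count of 2. The edgeR test gives no SE, so each SE is an approximation: the absolute log2 fold change divided by the square root of its F statistic. The edgeR step was run on simulated data as a check of the code. Its pass limits applied at a fixed spread between libraries, so it does not show what these libraries can detect. Alternatives were DESeq2 1.42.0, limma 3.58.1 voom without and with library weights, other scalings and filters, the label ending, and each library left out. No 2 libraries of a group agreed within sampling noise (chi-square per gene at least 15). Near zero means under 1 CPM. Neighbours are all genes from 2 Mb before to 2 Mb after the members. The members, lists and limits were chosen with earlier results of these data known. By rule, the text names all Skint genes, up to 4 of the most abundant tested genes of each list described, the nearest expressed protein-coding gene on each side, every gene with the near-zero pattern (up to 15), and the 5 genes most like Skint4 and like the member most abundant per kb. The pseudogenes and antisense RNA inside the cluster, Agbl4, Erv3, Gnat1, Cd276 and Jaml were named after their values were seen. For lists of other cells only sums are given.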

Additional observations from a re-analysis of the deposited data

Results flagged for a closer look

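Skint7 in KO replicate 2 stood apart from the other KO libraries, at 4.51 log2 CPM against 5.73 to 6.04 in KO replicates 1, 3, 4 and 5. Its gap to the nearest of them was a larger part of the range of the 5 KO libraries than Dixon's 95% limit allows, a limit that chance passes in about 1 of 20 such groups (11 Skint genes were checked). KO replicate 2 is the library with 5313552 counts and 3725 CPM on receptor genes, and the part of either in this value was not tested.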

How the results depend on the processing

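The near-zero values kept their count of 6 (3 members in 2 libraries) with a limit of 0.5 CPM, with a limit of 5% of each member's median and with CPM on library totals. Under 1 CPM in KO replicates 3 and 4 with at least 5 CPM elsewhere, the count of genes over the whole table was 3, and it was 6 with at least 2 CPM elsewhere. The order of the members per kb was the same on library totals for all 10. Over all genes, edgeR called 1 gene, against 137 in DESeq2, 0 in limma voom, 1243 with library weights, 0 with RLE size factors, 9 with no filter on low counts, 0 in libraries ending in br only and 0 to 1 with each library left out. Without WT replicate 3 and KO replicates 1 and 2 together, an alternative chosen after seeing the data, it called 1883. Of 106 tested genes of the lists and neighbours, 0 were called in edgeR (9 at an unadjusted p under 0.05), 2 in DESeq2, 0 in limma voom, 12 with library weights, 13 without those 3 libraries and 0 with each library left out. The cause of these differences was not tested. With a library left out, the log2 fold change ran from -1.55 to -0.79 for Skint4, -1.51 to -0.84 for Skint3 and -1.46 to -0.56 for Skint9, and Skint10 changed sign (-0.17 to 0.68). In limma voom the 3 were at -5.13, -5.18 and -3.93, with library weights at -7.44, -7.98 and -6.77, and without WT replicate 3 and KO replicates 1 and 2 at -2.12, -2.41 and -2.22. No paired analysis was possible because the labels give no replicate numbers. The shallowest library, KO replicate 2, has a floor of 0.521 CPM for a count of 0, which limits what can be said of the scarce pseudogenes there.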
